A study of Mus musculus with 2 samples.

Results

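The contractile apparatus of the myoepithelial cell was examined in 3D cultures of mouse mammary basal cells, 1 of which received TNF-α. Its 10 genes, Acta2, Actg2, Myh11, Myl9, Tpm2, Cnn1, Tagln, Lmod1, Mylk and Oxtr, were chosen by name, with earlier results of these data known. All 10 had a row among the 49492 genes of the count table. Basal cells were sorted from the mammary glands of adult female wild-type (WT) mice by FACS as lin-CD24+CD29hi cells and kept in matrix-gel, both cultures in EGF-containing medium, and the labels give 10 days of culture. The control library came from cells with no treatment and the TNF-α library from cells that received recombinant mouse TNF-α at 10 ng/mL, an inflammatory cytokine. There was 1 library per condition and the number of mice behind each is not given in the sources used here, so the spread between cultures is unknown, an effect of TNF-α and a difference between single cultures cannot be told apart, and no p-value is given.

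Myoepithelial cells are the basal cells that wrap the mammary ducts and alveoli and squeeze milk out of the gland. Oxytocin binds its receptor Oxtr, a Gq-coupled receptor, calcium is released inside the cell, calmodulin activates the kinase Mylk, and Mylk phosphorylates the regulatory light chain Myl9 so that the motor protein Myh11 pulls on filaments of Acta2 and Actg2. Tpm2, Cnn1, Tagln and Lmod1 bind those filaments and set how they are built and used. The transcription factor SRF, with its coactivators of the myocardin family, drives many of these genes through a DNA element called the CArG box, and TEAD factors bind a second element found in muscle promoters, the MCAT element.

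The libraries held 44462275 counts (control) and 53487087 counts (TNF-α), and edgeR's TMM scaling put their effective sizes at a ratio of 1.20. A log2 ratio below is the TNF-α level over the control level of scaled counts (CPM) with a prior count of 2, and its 95% interval is the exact Clopper-Pearson interval of the share of a gene's counts that came from the TNF-α library. The intervals cover counting error only and hold no spread between cultures, because neither condition had a replicate. They can also be too narrow for counting error, because reads copied by PCR and not tagged by molecule do not count molecules singly. Of 10 TNF response genes, 9 were more than 2-fold higher in the TNF-α library. Their log2 ratios ran from Cxcl1 at 0.68, the exception, to Mmp3 at 6.56. Among the 13609 genes with at least 200 counts, 4.01% were more than 2-fold higher. This list was chosen with earlier results of these data known, so it is no independent check of the treatment. The basal label was read beside its markers. Krt5, Krt14 and Trp63, which define mammary basal cells, had log2 ratios of 0.16, -0.08 and 0.03, and Krt14 was at 8276 TPM in the control and 7574 TPM with TNF-α (TPM, counts per base of exon as a share of the library). Of a wider list of 15 basal genes, 8 lay above 0 and 7 below, with Cxcl14 (-2.01) and Krt15 (-1.09) more than 2-fold lower. Such ratios compare the libraries and do not show which cells either of them held. Luminal genes were also abundant, with Krt8 at 1896 and 1715 TPM, so both libraries held transcripts that mark luminal cells. By FACS, the paper found mostly luminal cells in control colonies grown from sorted basal cells, and a larger basal proportion with TNF-α. The mix of cells in the libraries described here is not given, and its part in the ratios below was not tested.

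RefSeq promoter sequences (GRCm38.p6) were matched for 7 of the 10 genes and searched for both elements in the 250 bases before the RefSeq start. The CArG box (strictly CCWWWWWWGG, W being A or T) was found in 1 of the 7 windows (Myl9) and in 1.47% of 32851 windows of that length. The MCAT element (CATTCC, on either strand) was found in 3 of the 7 windows (Lmod1, Mylk and Acta2) and in 12.6% of all windows. Looser forms of the elements and sites outside the windows were not searched for, so a window without a match does not show that its gene lacks the element. These elements do not overlap each other in the windows of the 7 genes. Shown are the stretches that precede the first annotated exon base for the 3 genes with the lowest log2 ratios (Oxtr, Cnn1 and Lmod1) and for Myl9, followed by the MCAT element of Acta2 and Mylk with 10 bases on either side. Capitals mark the CArG box in Myl9 and the MCAT element, or its reverse complement, in the others.
Oxtr (chr6:112489944-112490075, minus strand): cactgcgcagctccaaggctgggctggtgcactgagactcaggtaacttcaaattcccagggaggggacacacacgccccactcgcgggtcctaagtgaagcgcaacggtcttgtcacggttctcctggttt
Cnn1 (chr9:22099003-22099215, plus strand): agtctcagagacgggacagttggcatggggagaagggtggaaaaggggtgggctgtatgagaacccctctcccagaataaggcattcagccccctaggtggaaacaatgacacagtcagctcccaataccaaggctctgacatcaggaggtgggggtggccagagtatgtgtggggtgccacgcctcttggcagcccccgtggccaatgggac
Lmod1 (chr1:135324563-135324806, plus strand): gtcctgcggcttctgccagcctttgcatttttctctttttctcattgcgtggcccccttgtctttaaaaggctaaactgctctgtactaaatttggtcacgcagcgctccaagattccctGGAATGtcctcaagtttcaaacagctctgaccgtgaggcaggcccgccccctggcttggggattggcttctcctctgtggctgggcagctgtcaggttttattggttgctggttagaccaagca
Myl9 (chr2:156775214-156775419, plus strand): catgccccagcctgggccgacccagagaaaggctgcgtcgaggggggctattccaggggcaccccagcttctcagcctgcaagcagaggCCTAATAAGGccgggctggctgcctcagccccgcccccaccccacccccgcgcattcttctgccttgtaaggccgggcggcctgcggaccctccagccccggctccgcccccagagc
Acta2 (chr19:34255504-34255529, minus strand): gcagaacagaGGAATGcagtggaaga
Mylk (chr16:34784782-34784807, plus strand): cagttcagaaCATTCCctggtacgtg
The Oxtr and Cnn1 stretches hold neither element in these exact forms. The CArG box of Myl9 lies 152 to 161 bases before the start. The MCAT elements lie 125 to 130 bases (Lmod1), 141 to 146 bases (Acta2) and 153 to 158 bases (Mylk) before the RefSeq start. The Acta2 element lies inside the gene as GENCODE M21 draws it, with its start at 34255590. The Mylk window lies inside the gene, at a start downstream of its first. A match is a description of the letters, and binding was not measured.

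Of the 10 genes, 1 was more than 2-fold lower in the TNF-α library (Oxtr) and 0 were more than 2-fold higher. All 10 passed the filter of at least 10 counts summed over both libraries. Among the 20771 genes that did so, 6.62% were more than 2-fold lower and 8.56% more than 2-fold higher. Among the 13609 genes with at least 200 counts, these shares were 2.87% and 4.01%. Each of the 10 genes had over 5000 counts, and among the 3892 genes at that depth the shares were 1.70% and 1.85%. A single gene out of 10 is too few to set against these shares. In a bulk library, fewer cells of a type and less RNA per cell cannot be told apart, which holds for each value below. The median log2 ratio of the 10 genes was -0.26, against 0.01 for the 3892 genes, and 7 of the 10 lay below 0, against 48.8% of those genes. As the 10 genes were chosen with earlier results of these data known, this comparison is a description only. Without Acta2, Actg2 and Tagln the median of the other 7 genes was -0.52. The genes left out include Actg2, which had the highest of the 10 ratios at 0.50. Among them, only the counts of Tagln are described below as uncertain. The median thus depends on which of the 10 genes are taken. The 10 genes together took 0.633% of the control counts (95% interval 0.630 to 0.635) and 0.506% of the TNF-α counts (0.505 to 0.508), and Acta2, Myh11, Tpm2 and Tagln made up 85.5% and 86.2% of that sum.

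**Figure D1:**
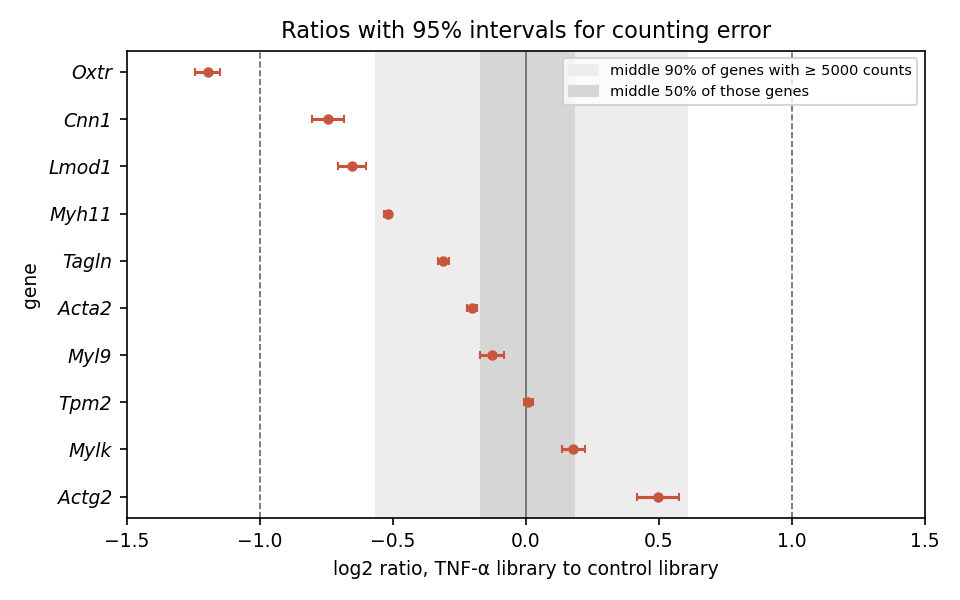
Log2 ratio of the TNF-α library to the control library for each of the 10 contractile genes, with bars for the 95% interval of counting error; the grey bands hold the middle 50% and middle 90% of the 3892 genes with at least 5000 counts, and dashed lines mark 2-fold. Oxtr alone lies beyond the dashed lines, at -1.19, and Cnn1 and Lmod1 lie below the lower edge of the wider band at -0.56.

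Oxtr, the oxytocin receptor gene (chromosome 6 of GRCm38, 112473683 to 112489943, minus strand), had 10762 counts in the control and 5630 with TNF-α. This is 241 and 106 CPM, a level 2.29-fold higher in the control, and the log2 ratio was -1.19 (95% interval -1.24 to -1.15). A lower ratio than this was found for 1.08% of the 3892 genes at its depth. The ratio of Oxtr was also set against that of single genes within the same libraries, which needs no scaling between libraries. Relative to Acta2 it was -0.99 on the log2 scale (95% interval -1.04 to -0.94, normal approximation for counting error). Relative to the basal genes Krt5, Krt14 and Trp63 it was -1.36 (-1.41 to -1.31), -1.11 (-1.16 to -1.07) and -1.22 (-1.28 to -1.16). Over all 15 basal identity genes, Oxtr was more than 2-fold lower relative to 10, lower by less than 2-fold relative to 4 and higher relative to 1. It was nearly level with Krt15, at -0.11 (-0.16 to -0.05), and higher relative to Cxcl14, at 0.81 (0.74 to 0.88), since both of these were themselves lower with TNF-α. Relative to Cnn1, Oxtr was at -0.45 (-0.53 to -0.37).

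The signalling genes between the oxytocin receptor and calcium did not share a direction. Of 22 such genes, 21 reached 10 counts, 12 lay below 0 and 9 above, with a median of -0.11, and none with at least 200 counts was past 2-fold in either direction. Gnaq, which encodes the G protein subunit that couples to the receptor, had 2329 counts in the control and 2465 with TNF-α, a log2 ratio of -0.18 (-0.26 to -0.10). Among the phospholipase C genes, Plcb1 was at -0.86 (762 and 502 counts) and Plcb4 at 0.59 (1185 and 2141 counts). The calcium channel gene Cacna1c was lowest at -0.88 with 410 and 265 counts. The highest, the potassium channel gene Kcnma1 at 1.53, had 4 and 18 counts only. Calm2, the most counted of the calmodulin genes, was at 0.07 with 137605 and 172874 counts. The gene for the related vasopressin receptor Avpr1a had 40 and 76 counts, far below Oxtr in both libraries.

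Acta2, which encodes smooth muscle α-actin (chromosome 19, 34241090 to 34255336, minus strand), had 44950 counts in the control and 46821 with TNF-α. After scaling this is 1009 and 877 CPM, a log2 ratio of -0.20 (-0.22 to -0.18). Actg2, the smooth muscle γ-actin gene (chromosome 6, 83512905 to 83536265, minus strand), had 2100 and 3552 counts, or 47.1 and 66.6 CPM, and its log2 ratio of 0.50 (0.42 to 0.58) was the highest of the 10 genes. The muscle actins thus went in opposite directions. Relative to Acta2, Actg2 was 0.70 higher on the log2 scale (0.62 to 0.78), and per length Acta2 exceeded Actg2 18.7 times in the control library and 11.5 times in the TNF-α library. Because actin coding sequences are alike, their transcripts in GENCODE M21 were searched for shared stretches of 50 bases. Actg2 shared none with another gene and Acta2 shared 0.326% of its stretches with Gm8399.

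The motor and its light chain also differed. Myh11, the smooth muscle myosin heavy chain gene (chromosome 16, 14194527 to 14291408, minus strand), had the most counts of the 10 genes, 107035 in the control and 89485 with TNF-α. Its levels were 2402 and 1677 CPM, a log2 ratio of -0.52 (-0.53 to -0.51). Myl9, the regulatory light chain gene (chromosome 2, 156775420 to 156781658, plus strand), had 7334 and 8046 counts, or 165 and 151 CPM, a log2 ratio of -0.13 (-0.17 to -0.08). The ratio of Myh11 lay 0.39 below that of Myl9 (-0.44 to -0.34). Mylk, the kinase that phosphorylates this light chain (chromosome 16, 34745210 to 35002420, plus strand), was on the other side of 0, with 7906 and 10722 counts, 177 and 201 CPM, and a log2 ratio of 0.18 (0.14 to 0.22). Its counts were summed over all exons of the gene, so the long and short forms of the kinase were not told apart, and 4.56% of its 50-base stretches also occur in other genes, mainly E130310I04Rik.

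Among the filament-binding genes, Cnn1 and Lmod1 had the lowest ratios and Tpm2 was nearest to 0. Cnn1, the gene for the actin-binding protein calponin (chromosome 9, 22099216 to 22109630, plus strand), had 5411 counts in the control and 3868 with TNF-α, 121 and 72.5 CPM, a log2 ratio of -0.74 (-0.80 to -0.68). Lmod1, whose product leiomodin nucleates actin filaments (chromosome 1, 135324807 to 135368065, plus strand), had 7182 and 5469 counts, 161 and 102 CPM, a log2 ratio of -0.65 (-0.70 to -0.60). They were the only neighbours in the order of the 10 ratios whose intervals overlapped, and the direct difference between them was -0.09 (-0.17 to -0.01). If both ends of read pairs were counted, intervals would be 1.42 times as wide and that of this difference would include 0. The intervals of Acta2 (-0.23 to -0.17) and Myl9 (-0.19 to -0.06) would then overlap too. Of the 10 genes, 3 were more than 1.5-fold lower (Oxtr, Cnn1 and Lmod1). The shares that were so were 13.7% of all 20771 genes and 4.73% of the 3892 genes with at least 5000 counts. Tpm2, a tropomyosin gene (chromosome 4, 43514711 to 43523765, minus strand), had 48907 and 58956 counts, 1097 and 1105 CPM, a log2 ratio of 0.01 (-0.01 to 0.03). With TMM scaling, no difference was thus detectable beyond counting error. With the 12 reference genes set at 0 the ratio of Tpm2 was -0.02, outside that interval, so whether Tpm2 differed depends on the scaling.

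Tagln, which encodes the actin-binding protein transgelin (chromosome 9, 45929619 to 45936058, minus strand), had 39710 counts in the control and 38343 with TNF-α, 891 and 719 CPM, a log2 ratio of -0.31 (-0.33 to -0.29). These counts are uncertain. Of the 1988 exon bases of Tagln, 1241 are shared with exons of RP23-228B2.5 on the opposite strand (chromosome 9, 45930112 to 45933738), which was listed with 40626 and 38838 counts and a log2 ratio of -0.32. Whether counting used the strand is not given in the sources used here, and reads of this gene and of its antisense partner cannot then be told apart. The listed exons of Tagln also share 108 bases with those of Pcsk7. No exon of the other 9 genes overlapped an exon of another listed gene.

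**Figure D2:**
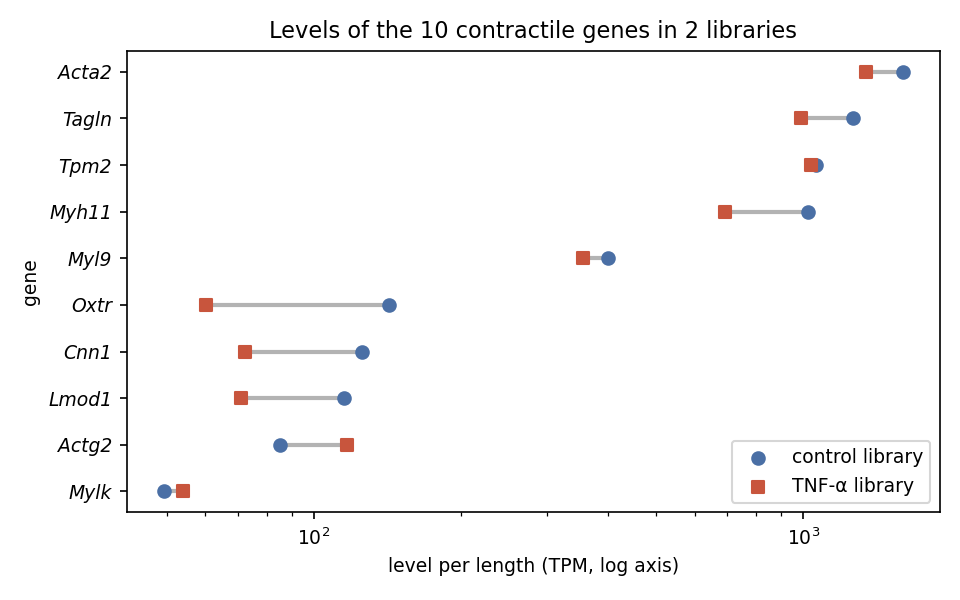
Level per length (TPM, log axis) of each of the 10 genes in the control library (circles) and the TNF-α library (squares), ordered by the control level. Acta2 leads in both libraries at 1598 and 1347 TPM, Oxtr is at 142 and 60.2 TPM, and Actg2 is at 85.4 and 117 TPM.

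Compared per length, the same 5 genes were the most abundant in both libraries. In the control library, Acta2 (1598 TPM), Tagln (1265), Tpm2 (1065) and Myh11 (1022) led, followed by Myl9 (399.6), Oxtr (142), Cnn1 (125), Lmod1 (115), Actg2 (85.4) and Mylk (49.3). With TNF-α, the order was Acta2 (1347 TPM), Tpm2 (1038), Tagln (988), Myh11 (691), Myl9 (355), Actg2 (117), Cnn1 (72.4), Lmod1 (71.0), Oxtr (60.2) and Mylk (54.1). Oxtr went from sixth to ninth place and Actg2 from ninth to sixth. Neighbouring levels lay apart by more than their exact Poisson intervals except for Cnn1 and Lmod1 with TNF-α. Among all genes listed, Acta2 ranked 73 by TPM in the control library and 92 with TNF-α, and Oxtr ranked 1063 and 2532. The lengths are summed over all exons, so a gene with exons that these cells do not use is placed too low.

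Several contractile genes have a family partner that most cells use for shape and movement, and the ratio of the contractile genes to their partners was lower in the TNF-α library in all 6 families, with Acta2 and Actg2 summed. Cnn1 was at 0.633 of the summed TPM of Cnn2 and Cnn3 in the control library and at 0.364 with TNF-α. Tagln exceeded Tagln2 12.3 times and 5.97 times, with the limit on the Tagln counts given above. Myl9 was at 1.08 and 0.735 of Myl12a and Myl12b, the light chains of non-muscle myosin, and Tpm2 at 0.441 and 0.323 of Tpm1, Tpm3 and Tpm4. Smooth muscle uses Tpm1 too, and without it the ratio of Tpm2 was 0.602 and 0.418. The smallest shifts were in Acta2 and Actg2 against the cytoplasmic actins Actb and Actg1 (0.733 and 0.680) and in Myh11 against the non-muscle heavy chains Myh9, Myh10 and Myh14 (0.337 and 0.296). Taken alone, Acta2 was at 0.696 and 0.626 of the cytoplasmic actins, while Actg2 went the other way, at 0.0372 and 0.0543. The non-muscle genes themselves had a median log2 ratio of 0.20 over 16 genes, with 10 above 0 and none past 2-fold. They ranged from Myh14 at -0.59 (120020 and 95736 counts) to Tagln2 at 0.74 (3371 and 6721 counts), and Tpm4 was at 0.62. The log2 ratio of Tpm2 minus that of Tpm4 was -0.61 (-0.63 to -0.58), while that of Tpm2 itself was 0.01.

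**Figure D3:**
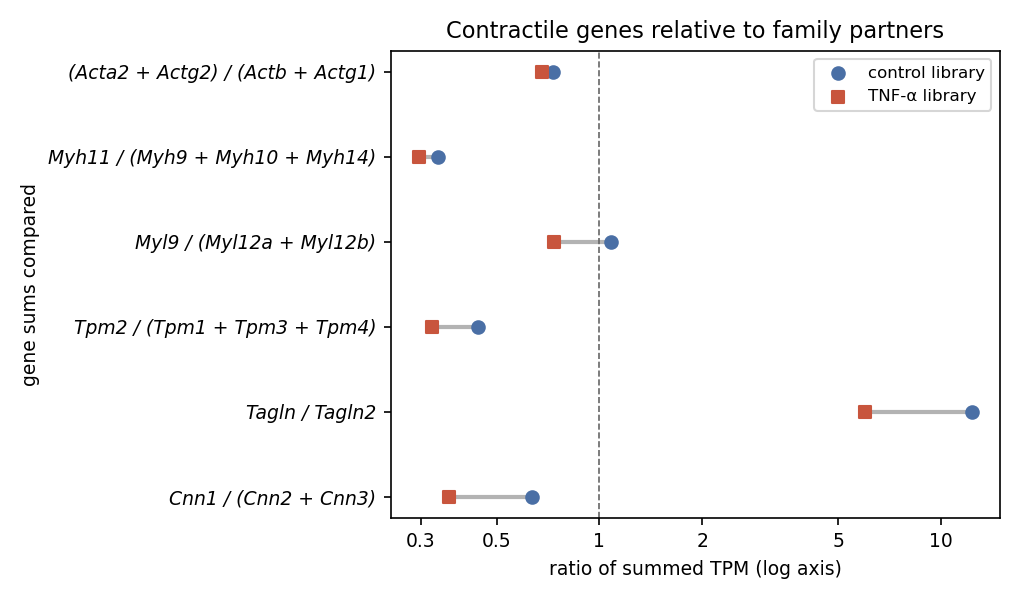
Summed TPM of each contractile gene or pair divided by that of its family partners (log axis), in the control library (circles) and the TNF-α library (squares), with a dashed line at 1. In all 6 families the square lies to the left of the circle, most for Tagln (12.3 and 5.97) and Cnn1 (0.633 and 0.364), and least for the actins (0.733 and 0.680).

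A wider list of 25 smooth muscle contractile genes had a median of -0.14, with 17 genes below 0, 4 more than 2-fold lower and 0 more than 2-fold higher. Synm, which encodes the intermediate filament protein synemin, was lowest, with 1794 counts in the control and 588 with TNF-α (log2 ratio -1.87, -2.01 to -1.73). Aoc3, an amine oxidase gene of smooth muscle, had 206 and 76 counts (-1.67), and the adhesion gene Tns1 was at -1.04. The highest was Pdlim3, which encodes a LIM protein of the cytoskeleton, with 1261 and 3015 counts (0.997, 0.90 to 1.09), just short of 2-fold. Smtn, the smoothelin gene, was at -0.49, Tpm1 at 0.22 and Cald1, the caldesmon gene, at 0.04 with 176197 and 216777 counts.

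A list of 14 transcription factors and coactivators, which held SRF and its partners, the TEAD factors with their coactivators Yap1 and Wwtr1, Klf4 and Mef2c, had no gene past 2-fold and a median of -0.12. Srf itself had 1859 counts in the control and 2249 with TNF-α, a log2 ratio of 0.01 (-0.07 to 0.10). Its coactivators Mrtfa and Mrtfb, listed under their older names Mkl1 and Mkl2, were at -0.14 and -0.23. Myocd, the coactivator of smooth and heart muscle, was the lowest of the list at -0.93 but rested on 8 and 4 counts, too few to tell a difference from counting error. Mef2c was the highest at 0.29. Of the TEAD genes, Tead2 was lowest, with 2144 counts in the control and 1595 with TNF-α (-0.69, -0.78 to -0.59). Tead1, Tead3 and Tead4 were at -0.13, -0.11 and -0.07, and the intervals of Tead3 and Tead4 held 0. These values are transcript amounts and do not measure where the proteins were or whether they were active.

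**Figure D4:**
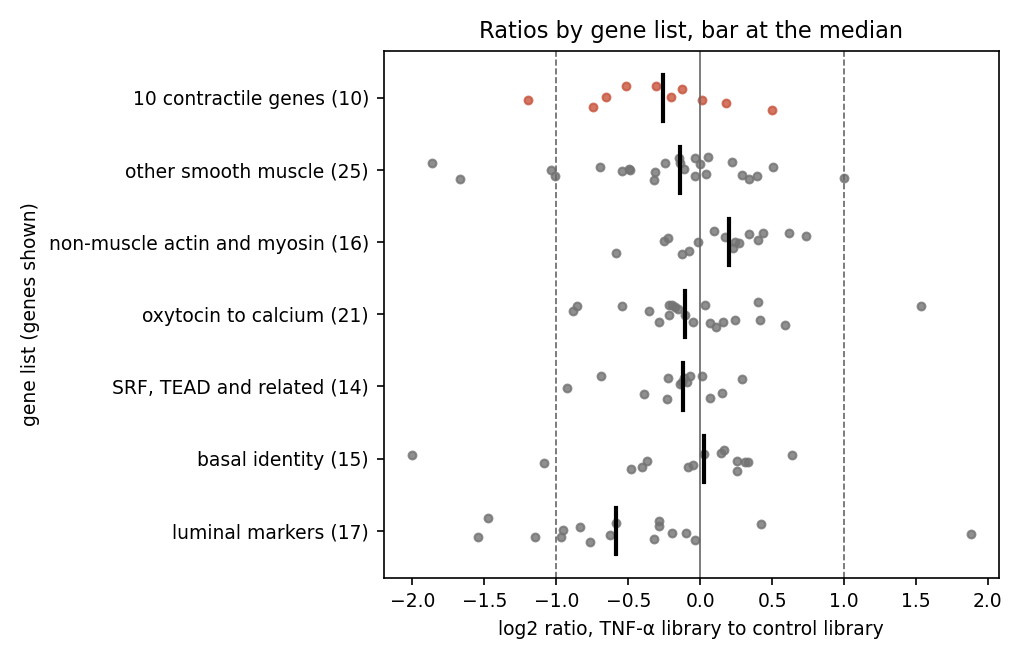
Log2 ratio of the TNF-α library to the control library for the 10 contractile genes and for 6 other lists, 1 point a gene with at least 10 counts, a black bar at each median and dashed lines at 2-fold. The medians run from -0.59 for the luminal markers to 0.20 for the non-muscle actin and myosin genes, with the 10 contractile genes at -0.26.

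Genes of other cell types were read beside these results. Of 15 basal identity genes, 8 lay above 0 and 7 below with a median of 0.03, and Cxcl14 (-2.01) and Krt15 (-1.09) were more than 2-fold lower while Mme was highest at 0.64. Of 17 luminal markers, 15 lay below 0 with a median of -0.59, and their summed level was 4892 CPM in the control and 3752 CPM with TNF-α. The hormone receptor genes Pgr (-1.54), Esr1 (-1.48) and Prlr (-1.15) were more than 2-fold lower and the casein gene Csn3 (1.88) more than 2-fold higher. Their part in the lower level of Oxtr was not tested.

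Cells that also use smooth muscle actin were looked for by their own markers. Of 11 pericyte and vascular smooth muscle markers, 9 reached 10 counts, with a median of -0.22, and their summed level was 202 CPM in the control and 158 CPM with TNF-α, most of it from Notch3 (7241 and 6364 counts). Rergl was at 0 in both libraries, Higd1b had 1 and 0 counts, and Rgs5 had 408 and 420 counts. Abcc9 was lowest at -1.25 (106 and 52 counts), and Ndufa4l2 was highest at 5.81 (4 and 388 counts). Among 12 fibroblast markers, 10 lay above 0 with a median of 0.26 and a summed level of 730 and 773 CPM. Dpt (20 and 622 counts), Fbln1 (91 and 317) and Dcn (184 and 582) were more than 2-fold higher and Col3a1 was lowest at -0.66. The 8 endothelial markers summed to 9.27 and 8.38 CPM, from Cldn5 (16 and 2 counts) to Cdh5 at 0.22, and the 11 leukocyte markers to 8.95 and 6.93 CPM, from Cd79a (6 and 4 counts) to Ptprc at 0.27. The part of fibroblasts and vascular smooth muscle in the levels of the 10 genes was not tested.

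Paralogs of the 10 were measured as well, most of them genes of striated muscle. The list also held Tagln3 and the vasopressin receptor genes Avpr1a, Avpr1b and Avpr2. Of its 19 genes, 17 reached 10 counts. Their median of 0.05 is the value of Avpr2, which had 8 and 10 counts. Acta1 and Actc1, the skeletal and heart actin genes, had 364 and 294 counts in the control and 456 and 340 with TNF-α. The myosin heavy chain genes Myh3 (433 and 1176 counts, log2 ratio 1.18) and Myh2 (453 and 1205 counts, 1.15) were higher by more than 2-fold after TNF-α. Myh6, the heart heavy chain gene, had 8363 and 9233 counts and a log2 ratio of -0.12. Mylk2 was lowest at -1.30 with 46 and 21 counts.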

How the data were processed

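RNA-seq was measured in 1 control and 1 TNF-α library of 3D-cultured mammary basal cells. Raw counts were deposited as 1 gene table that also holds exon coordinates, strand and summed exon length; its layout is that of featureCounts. The submitters' processing notes name GRCm38 (mm10), and 90.8% of 47240 gene names shared with GENCODE M21 had the same coordinates, as had 8 of the 10 genes described. The aligner, counting tool, read filters and strand setting are not given in the sources used here. If both ends of a read pair were counted, intervals would be 1.42 times as wide. Many low counts were even in both libraries, as such counting would give (Myocd 8 and 4, Cldn5 16 and 2). Others were not (Mrc1 20 and 17, Tek 22 and 23), and this was not tested, so the intervals given may be too narrow.

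TMM factors came from edgeR 4.0.16 in R 4.3.3. Ratios of CPM on the log2 scale used 2 as prior count, and genes needed 10 or more counts in the sum of both libraries. No test was run, since edgeR's quasi-likelihood fit needs replicates, and values are given with 95% intervals for counting error and a threshold of 2-fold. A count of 10 is worth 0.224 CPM in the control and 0.187 CPM in the TNF-α library. TPM was computed from counts and summed exon lengths. As alternatives, scaling used upper quartiles, total counts, size factors of DESeq2 1.42.0 or 12 reference genes set at 0, with other prior counts, filters and a fold of 1.5. Intervals and plots were made in Python 3.11.15 (scipy 1.17.1, numpy 2.4.6, matplotlib 3.10.9, pandas 2.3.3), and scaling and intervals were checked on simulated data. That simulation held counting error only, so it cannot show whether the intervals are wide enough for these data.

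The 10 genes and all lists were chosen with earlier results of these data known. Named are the 10 genes, the highest and lowest of each list, and each list gene past 2-fold with at least 200 counts. Some results under this rule are not reported here. Other genes named (family partners, defining markers and pathway genes) were chosen after their values were seen. The depth minimum of 5000 counts, the shares at 1.5-fold, Oxtr against all 15 basal genes and the single-gene family ratios were also added then. Protein sequences were not used here, and shared stretches of transcripts took the place of protein identity.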

Additional observations from a re-analysis of the deposited data

How the results depend on the processing

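No paired analysis was possible because there was 1 library for each treatment, and leaving out replicates was likewise not possible. With upper quartile scaling, total counts, size factors of DESeq2, reference genes set at 0 and prior counts of 0.5 and 5, Oxtr remained the single gene more than 2-fold lower (log2 ratio from -1.23 to -1.19) and 0 genes were more than 2-fold higher. A fold of 1.5 gave 3 genes lower (Oxtr, Cnn1 and Lmod1), while 13.7% of all genes tested were lower by that fold, a share added after seeing the data. The median of the 10 genes lay between -0.29 and -0.25 in these scalings. It was -0.52 when Acta2, Actg2 and Tagln were left out, among them the gene with the highest ratio (Actg2, 0.50). Of 60 values of single genes, 56 stayed within their interval for counting error. The other 4 moved when the 12 reference genes, whose median was 0.03, were set at 0, and Tpm2 then went from 0.01 to -0.02. The number of genes more than 2-fold higher and lower, 1777 and 1375, was 546 and 390 with at least 200 counts, 836 and 658 with at least 1 CPM, 2679 and 2996 with no filter, and, chosen after seeing the data, 72 and 66 with at least 5000 counts, as fewer or more genes were then tested.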
